A study of Homo sapiens with 18 samples.

Results

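The matrix-binding integrin subunits are 10 genes, ITGA1, ITGA2, ITGA3, ITGA5, ITGA10, ITGAV, ITGB1, ITGB3, ITGB5 and ITGB6, taken by symbol from the 21411 genes in the tables of read counts and of CPM (counts scaled to library size). All 10 were found, and the rule used no measured value. Integrins are transmembrane receptors made of an α chain and a β chain, which hold the cell to its extracellular matrix (ECM) and link the matrix to the actin cytoskeleton through talin and kindlin. The α chain largely sets the ligand. ITGA1, ITGA2 and ITGA10 encode the α chains of collagen receptors, ITGA3 that of a laminin receptor and ITGA5 that of the main fibronectin receptor, and all of these pair only with the β chain encoded by ITGB1. ITGAV encodes the α chain of receptors for fibronectin, vitronectin and other ligands with an arginine-glycine-aspartate motif, and its partners are the β chain of ITGB1 and, among others, those of ITGB3, ITGB5 and ITGB6. In breast carcinoma cells these receptors carry adhesion and migration, and the last group is also known for activating latent TGFβ.

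Messenger RNA was sequenced from spheroids of MDA-MB-231 cells, an established triple-negative breast cancer cell line, after 7 days in Matrigel, a laminin-rich basement membrane gel (50000 cells seeded, 2 mg/ml). There were 6 conditions with 3 biological replicates each, per the labels, giving 18 libraries with 10330581 to 18327890 reads counted on genes. The unedited line is named Jag1WT. To make Jag1KO, an exon of JAG1, the gene of the Notch ligand Jagged1, was edited with Cas9 and clones grown from single cells were mixed. Those cells were then given a pcDNA3.1 plasmid, with Jagged1 cDNA for Jag1KO + rescue or empty for Jag1KO + ctrl, and kept under G418, so that both differ from Jag1KO in plasmid and selection. The groups siCtrl and siJag1 are parental cells transfected once, before seeding, with a nontargeting siRNA or with siRNAs against Jagged1. All groups were thus monocultures of 1 cell line in the same gel, and protein and surface integrin were not measured in these libraries.

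The comparisons ask what the presence of Jagged1 does to the RNA of the cancer cells, so each is given as the Jagged1-high group against the low one. JAG1 itself, the check of the labels, had 433, 585 and 522 CPM in Jag1WT against 116, 205 and 149 in Jag1KO, means of 612 against 131 CPM in Jag1KO + rescue and Jag1KO + ctrl, and 532 against 167 in siCtrl and siJag1. No library of a low group reached one of a high group, although the edited gene was still transcribed. The line's own genes VIM (2184 to 4946 CPM) and CD44 (396 to 559) were present throughout. Of 4 genes listed as absent from the line, ESR1 was at 0 in 17 libraries. PGR was at 0 in 6 libraries and reached 1.77 CPM, and CDH1 was at 0 in 5 and reached 1.16 CPM. ERBB2, also on that list, was detected in every library, at 32.5 to 59.98 CPM. Of the markers of other cell types, DCN, LUM, THY1, CDH5, PTPRC and CD3E stayed below 0.3 CPM, whereas KDR (5.74 to 16.9), PECAM1 (0.954 to 15.1), COL1A1 (2.66 to 10.0) and CD68 (88.9 to 209) were detected. Summed over 6 fibroblast markers the level was 3.29 to 10.9 CPM. The sum of 5 endothelial markers, most of it KDR and PECAM1, was lower in Jag1WT (13.8 to 14.5 CPM) than in Jag1KO (15.4 to 19.5) and in siCtrl (12.6 to 13.7) than in siJag1 (18.1 to 19.4), and it overlapped between Jag1KO + rescue (17.9 to 20.2) and Jag1KO + ctrl (18.2 to 23.5), while CDH5, which defines endothelial cells, was at 0 in 14 libraries and at most 0.0955 CPM. In bulk RNA, fewer cells with a transcript and less of it per cell cannot be told apart.

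Libraries of the same group differed in proliferation genes, which is given here because it touches several results. The mean log2(CPM + 1) of 20 such genes was 4.47, 5.24 and 4.47 in Jag1WT, and 4.56, 5.98 and 6.25 in Jag1KO. It was 4.60, 5.38 and 4.59 in Jag1KO + rescue, and 6.38, 6.84 and 4.79 in Jag1KO + ctrl. In siCtrl it was 4.60, 5.50 and 4.86, and in siJag1 4.66, 6.71 and 4.80. The 5 libraries above 5.9 were therefore all from Jagged1-low groups, and each low group also held a library inside the range of its Jagged1-high partner.

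Per length of transcript, the line expressed mainly receptors for laminin and collagen. On the RPKM scale (CPM per kilobase), the mean over the 18 libraries was 382 for ITGA3, 353 for ITGB1 and 164 for ITGA2. A middle group followed, with ITGA5 at 79.3, ITGB5 at 44.1, ITGAV at 32.6 and ITGA1 at 30.4. ITGA10 (2.28) and ITGB3 (1.90) were low, and ITGB6, the epithelial partner of the αV chain, was close to nothing at 0.0629. ITGB6 had 0 to 13 reads in a library and at most 0.703 CPM, with 1 siJag1 library at 0, and it passed the filter on low values (above 1 CPM in at least 3 of 6 libraries) in no comparison. All tests below are therefore on 9 of the 10 genes. A count of 0 in a library allows up to 3 reads.

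**Figure D1:**
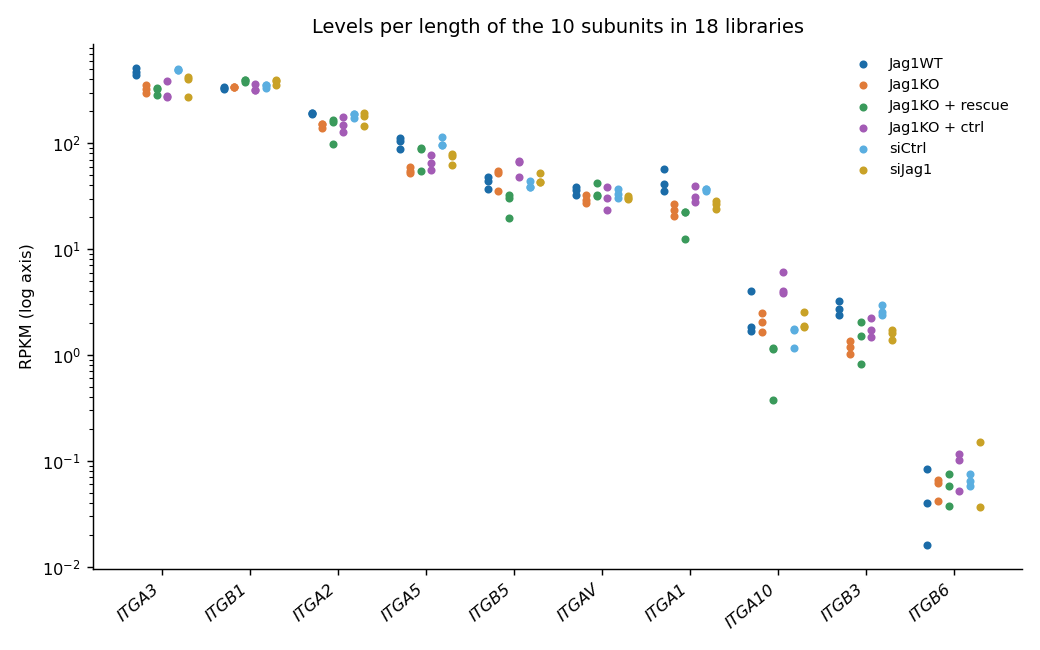
Levels of the 10 subunits per length of transcript (RPKM, log axis), 1 point per library and colour by condition. ITGA3, ITGB1 and ITGA2 lead, ITGA10 and ITGB3 lie near 2 RPKM, and the ITGB6 library at 0 is not drawn.

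The spread over the 18 libraries also set the members apart. ITGB1, the β chain that the collagen, laminin and fibronectin receptors share, varied least, with a coefficient of variation of 7.25% and 1289 to 1607 CPM. ITGAV (13.6%) and ITGA2 (16.1%) came next, and ITGA3 (22.8%), ITGA5 (26.0%) and ITGB5 (27.1%) lay between. ITGA1 (32.9%), ITGB3 (36.0%) and ITGA10 (60.1%) varied most among the genes tested. ITGA10 ranged from 2.04 to 33.3 CPM.

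Each gene was placed on hg38 with the annotation of GENCODE. ITGA1 (chromosome 5, 52787916 to 52959209, plus strand) and ITGA2 (chromosome 5, 52989340 to 53094779, plus strand) are neighbours, and PELO lies inside ITGA1 on the same strand, so that reads there could belong to either gene. ITGA5 lies on chromosome 12 (54395261 to 54419266, minus strand). ITGB3 (47253827 to 47313743) and ITGA3 (50055968 to 50090481) are both on chromosome 17, plus strand. The 250 bases before the start are printed for the neighbours ITGA1 and ITGA2, which encode the α chains of the main collagen receptors of the line, and for ITGA5, the fibronectin receptor gene described next. They are from RefSeq (GRCh38.p14), 5′ to 3′ on the strand of the gene, at chr5:52787666-52787915, chr5:52989102-52989351 and chr12:54419267-54419516. Capitals mark the GC box GGGCGG, the core of an SP1 site, on either strand.
ITGA1: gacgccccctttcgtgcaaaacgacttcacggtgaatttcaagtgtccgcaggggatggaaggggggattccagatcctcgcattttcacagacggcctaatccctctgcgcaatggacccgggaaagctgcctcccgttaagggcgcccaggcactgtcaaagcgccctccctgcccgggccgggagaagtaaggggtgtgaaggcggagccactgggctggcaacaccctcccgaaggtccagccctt
ITGA2: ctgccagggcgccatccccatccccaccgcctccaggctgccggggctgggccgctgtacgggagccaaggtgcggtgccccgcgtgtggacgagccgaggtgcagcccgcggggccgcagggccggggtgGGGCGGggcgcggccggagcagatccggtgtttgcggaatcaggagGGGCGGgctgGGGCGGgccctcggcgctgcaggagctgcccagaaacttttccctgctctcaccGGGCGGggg
ITGA5: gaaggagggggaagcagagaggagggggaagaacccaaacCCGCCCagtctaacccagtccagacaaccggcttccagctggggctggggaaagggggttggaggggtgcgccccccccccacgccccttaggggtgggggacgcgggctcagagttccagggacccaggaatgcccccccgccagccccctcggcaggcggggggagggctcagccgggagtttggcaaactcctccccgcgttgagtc
The ITGA2 window held 4 GC boxes and the ITGA5 window 1, and the ITGA1 window held none, while 42.6% of all 35116 windows of this length in the table held at least 1. Windows were present for 8 of the 10 genes, 12 windows in all, and the other 2 are ITGA3 and ITGB3. TGGGAA, the core bound by the Notch effector RBPJ, was in 0 of the 12 and in 20.8% of all windows, and the AP-1 letters TGANTCA were in 0 of the 12 and in 6.57%. Both strands were read, overlapping matches of 1 motif were marked as 1 run, and the letters of the 3 motifs do not contain each other. A match or its absence in so short a window is a description of the letters and says nothing of binding.

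In the unedited parental cells, the genes of a fibronectin receptor α chain and of a vitronectin receptor β chain were higher than in Jag1KO. These groups differ in JAG1 and in growth from single-cell clones, which cannot be told apart in this comparison. Of the 9 subunits tested in Jag1WT against Jag1KO, 2 were called higher (ITGA5 and ITGB3) and 0 lower, where called means a Benjamini-Hochberg FDR below 0.05 by edgeR's quasi-likelihood test over all genes and a fold change above 1.5. Of all 12879 genes tested, 0.412% were called higher and 0.303% lower. In 6 of the 9 every Jag1WT library lay above every Jag1KO library (ITGA1, ITGA2, ITGA3, ITGA5, ITGAV and ITGB3), against 7.24% of all genes, and in 0 of the 9 every library lay below (6.58%). At an unadjusted p below 0.05 there were 6 (8.81% of all genes). The median log2 fold change of the 9 was 0.38, and that of all genes tested −0.01. In Jag1KO + rescue against Jag1KO + ctrl and in siCtrl against siJag1, 0 of the 9 were called in either direction, and 3 and 4 of them had p under 0.05 before adjustment (30.8% and 3.83% of all genes). DESeq2 called 3 lower in the rescue (994 of all genes lower) and 0 with siRNA (21 of all genes higher and 3 lower). JAG1 itself, the gene silenced by the siRNAs, was not called by edgeR with siRNA, at a log2 fold change of 1.68. A subunit without a call there is therefore not shown to be unchanged. In the rescue JAG1 was the only gene called, at 2.22. Calls were few in these comparisons for all genes too, 0.00778% higher and 0% lower in the rescue and 0.0157% higher and 0% lower with siRNA. These shares depended on single libraries, since without Jag1KO replicate 1 the parental comparison gave 333 genes higher and 600 lower, and without Jag1KO + ctrl replicate 3 the rescue gave 1774 and 1875.

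ITGA5, the α chain of the main fibronectin receptor, had 378, 475 and 443 CPM in the Jag1WT libraries and 231, 253 and 221 in Jag1KO. In siCtrl it had 409, 487 and 408 CPM, and in siJag1 337, 264 and 320.3. With the plasmids it had 234, 386 and 375 CPM in Jag1KO + rescue and 277, 236 and 331 in Jag1KO + ctrl. The Jag1WT and siCtrl libraries did not overlap their Jagged1-low partners, while replicate 1 of Jag1KO + rescue was below every Jag1KO + ctrl library. The log2 fold change was 0.87 (SE 0.122, edgeR FDR = 0.0234; 1.83-fold) in Jag1WT against Jag1KO, 0.51 (SE 0.125, edgeR FDR = 0.970) with siRNA and 0.23 (SE 0.229, edgeR FDR = 0.492) with the rescue. Over the 3 comparisons together, in 1 fit of the 18 libraries, ITGA5 had a mean log2 fold change of 0.53 (SE 0.101, edgeR FDR = 0.0145), past the FDR threshold and short of the fold threshold. In this mean 0 of the 9 subunits were called (0.353% of all genes called higher and 0.58% lower), and 6 had p under 0.05 before adjustment (26.6% of all genes). Of the summed RPKM of ITGA1, ITGA2, ITGA3, ITGA5 and ITGA10, a sum without ITGAV and ITGA6, which also pair with ITGB1, ITGA5 made up 12.4% ± 1.13 in Jag1WT and 9.98% ± 0.970 in Jag1KO, 13.99% ± 1.52 in Jag1KO + rescue and 11.7% ± 0.341 in Jag1KO + ctrl (SD, n = 3), without overlap in either pair. In siCtrl (12.5% ± 1.00) and siJag1 (11.4% ± 0.686) this share overlapped.

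ITGB3, the β chain of the classical vitronectin receptor, was rare, with 59 to 243 reads in a library. It was higher in Jag1WT than in Jag1KO and in siCtrl than in siJag1. It had 11.6, 13.2 and 15.8 CPM in Jag1WT against 5.02, 6.57 and 5.83 in Jag1KO, and 12.4, 14.4 and 11.7 in siCtrl against 7.94, 6.71 and 8.39 in siJag1. The groups overlapped in neither pair. With the plasmids the values were 4.02, 9.97 and 7.44 in Jag1KO + rescue and 10.97, 8.45 and 7.28 in Jag1KO + ctrl, which overlapped. The log2 fold changes were 1.22 (SE 0.201, edgeR FDR = 0.0451), 0.75 (SE 0.167, edgeR FDR = 0.970) and −0.32 (SE 0.343, edgeR FDR = 0.528), in the order parental, siRNA and rescue. Jag1KO + ctrl was itself above Jag1KO in every library, with a log2 difference of 0.60 (SE 0.236, edgeR FDR = 0.757). That difference was not called, and whether it bears on ITGB3 in the rescue comparison was not tested. The calls of ITGA5 and ITGB3 rested on most libraries of the comparison. Leaving out any of the 3 Jag1WT libraries, or replicate 2 or 3 of Jag1KO, left 0 subunits called, with an edgeR FDR of up to 0.173 for ITGA5 and 0.244 for ITGB3. Without replicate 1 of Jag1KO, 4 were called, ITGA1 and ITGA3 being the others. The fold changes of ITGA5 (0.80 to 0.97) and ITGB3 (1.08 to 1.33) moved little on the log2 scale.

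The proliferation genes stood beside these values as follows. Replicate 1 of Jag1KO, with a proliferation mean of 4.56 beside 4.47 to 5.24 in Jag1WT, had 231 CPM of ITGA5 and 5.02 CPM of ITGB3, both below every Jag1WT library. Replicates 1 and 3 of siJag1 (4.66 and 4.80, beside 4.60 to 5.50 in siCtrl) had 337 and 320.3 CPM of ITGA5 and 7.94 and 8.39 CPM of ITGB3, below every siCtrl library. Replicate 2 of siJag1 (6.71) had the lowest ITGA5 and ITGB3 of its group, 264 and 6.71 CPM. In Jag1KO + ctrl, replicate 3 (4.79) had 331 CPM of ITGA5, the highest of its group and inside the range of the rescue libraries, and 7.28 CPM of ITGB3, the lowest of its group, while replicate 1 (6.38) had 10.97 CPM of ITGB3, above the 3 rescue libraries. The part of proliferation in the ITGA5 and ITGB3 differences was not tested.

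**Figure D2:**
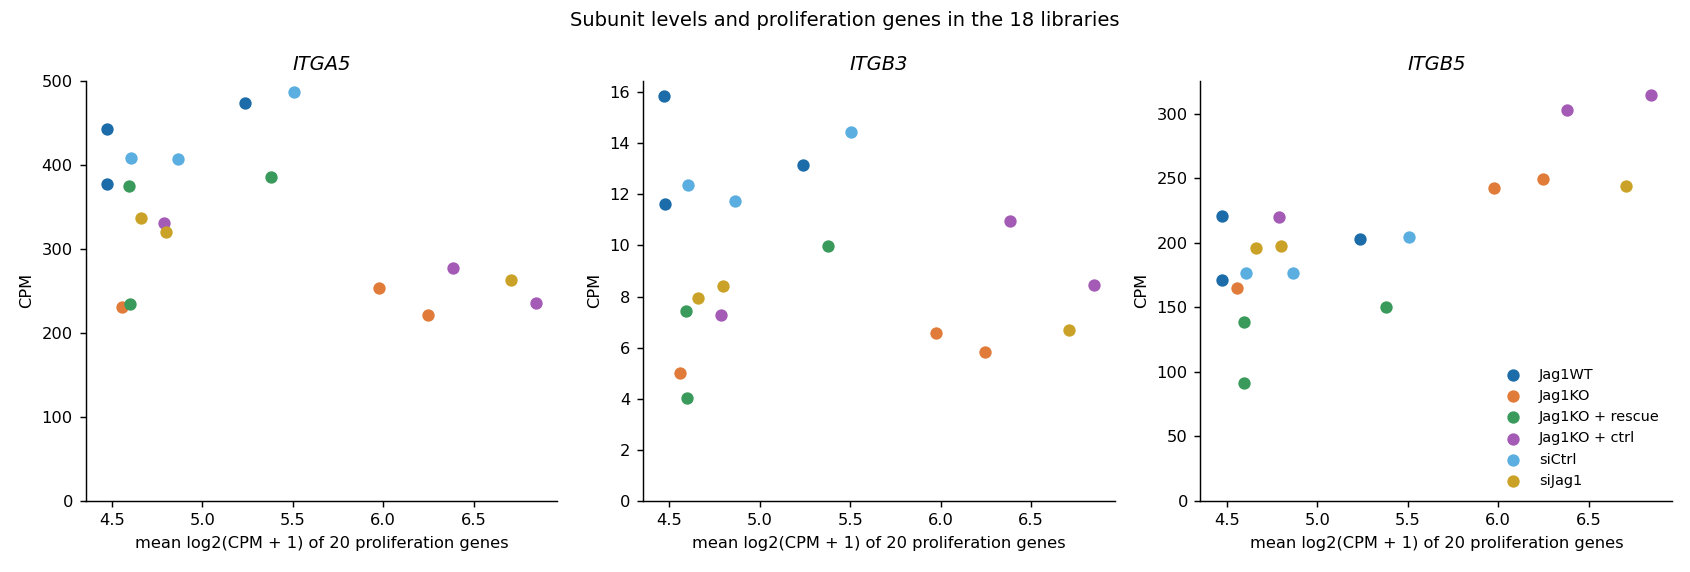
ITGA5, ITGB3 and ITGB5 (CPM) in each library against the mean log2(CPM + 1) of 20 proliferation genes, coloured by condition. Jag1KO replicate 1, at 4.56, has 231 CPM of ITGA5 and 5.02 CPM of ITGB3, Jag1KO + ctrl replicate 1, at 6.38, has 10.97 CPM of ITGB3, and the ITGB5 values of 243 to 314 CPM all belong to the 5 libraries above 5.9.

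The other vitronectin receptor β chain, ITGB5, did not follow ITGB3. It had 171, 203 and 221 CPM in Jag1WT and 165, 243 and 249.5 in Jag1KO, and 176, 205 and 177 in siCtrl against 196, 244 and 197 in siJag1. These groups overlapped. In Jag1KO + rescue it had 91.6, 151 and 139 CPM and in Jag1KO + ctrl 303, 314 and 220.0, without overlap and lower with Jagged1. Of the 9 subunits, 3 were lower in every Jag1KO + rescue library (ITGB5, ITGA1 and ITGA10; 16% of all genes) and 1 was higher (ITGB1; 16.5% of all genes). The log2 fold change of ITGB5 was −1.14 (SE 0.228, edgeR FDR = 0.104) in the rescue, −0.15 (SE 0.181, edgeR FDR = 0.859) in Jag1WT against Jag1KO and −0.19 (SE 0.124, edgeR FDR = 0.970) with siRNA. Over the 3 comparisons its mean was −0.50 (SE 0.118, edgeR FDR = 0.0468), short of the fold threshold. The 5 highest libraries for ITGB5 were the 5 with the highest proliferation genes. Within the Jagged1-low groups, the library with low proliferation genes had 165 CPM in Jag1KO, 220.0 in Jag1KO + ctrl and 196 and 197 in siJag1. The value in replicate 3 of Jag1KO + ctrl was still above the 3 rescue libraries, while those in Jag1KO and siJag1 lay below or inside the range of their partners. The part of proliferation in the ITGB5 difference was not tested.

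ITGAV, the α chain that ITGB3, ITGB5 and ITGB6 share, had a narrow range of group means. They ran from 218 ± 18.5 CPM in Jag1KO to 264 ± 22.7 in Jag1WT (SD, n = 3), and in the order of the 6 means every neighbouring pair of groups overlapped. The log2 fold changes were 0.27 (95% interval 0.02 to 0.53), 0.18 (−0.30 to 0.67) and 0.12 (−0.12 to 0.37) in the parental, rescue and siRNA comparisons, with an edgeR FDR of at least 0.523. Every Jag1WT library was above every Jag1KO library by a narrow gap, 241 against 238 CPM.

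Set against each other per length, the vitronectin receptor β chains gave the pattern most alike across the 3 comparisons. ITGB3 per 100 ITGB5, both in RPKM, was 6.42 ± 0.327 in Jag1WT and 2.54 ± 0.337 in Jag1KO, 5.15 ± 1.06 in Jag1KO + rescue and 3.02 ± 0.446 in Jag1KO + ctrl, and 6.51 ± 0.218 in siCtrl and 3.47 ± 0.768 in siJag1 (SD, n = 3). Every library with Jagged1 was above every library of its partner group. By library, the ratio was 4.14, 6.24 and 5.06 in Jag1KO + rescue and 3.41, 2.53 and 3.12 in Jag1KO + ctrl. The exact two-sided permutation test over libraries gave p = 0.1 in each comparison, the smallest that 3 against 3 libraries can give, so that no single comparison could pass. Between Jag1KO + ctrl and Jag1KO the ratio overlapped (p = 0.3 in the same exact test), as it did between siCtrl and Jag1WT (p = 0.8). In the parental and siRNA comparisons the groups did not overlap for ITGB3 and overlapped for ITGB5, and in the rescue they did not overlap for ITGB5 and overlapped for ITGB3. Of these, only ITGB3 in the parental comparison was called. This ratio was 1 of 10 computed, and it was singled out after its values were seen.

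**Figure D3:**
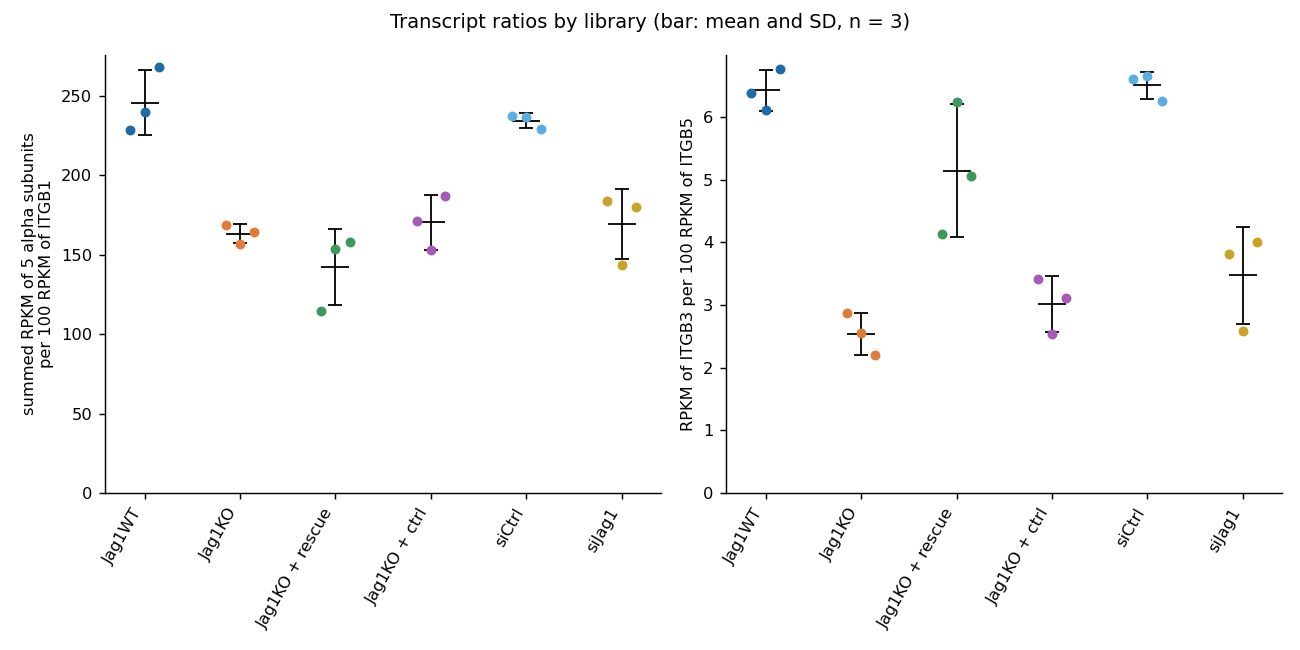
Transcript ratios per library on the RPKM scale, with mean and SD (n = 3) of each condition. On the left, the summed α chains of ITGA1, ITGA2, ITGA3, ITGA5 and ITGA10 per 100 ITGB1 are 245 in Jag1WT and 234 in siCtrl and 142 to 170 in the other groups. On the right, ITGB3 per 100 ITGB5 is higher in each Jagged1-high group than in its partner.

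Among the collagen receptors, ITGA1 lay in opposite directions in the knockout and the rescue comparisons. It had 198, 171 and 271 CPM in Jag1WT and 98.1, 111 and 128 in Jag1KO, and 177, 169 and 178 in siCtrl against 137, 129 and 115 in siJag1. Neither pair overlapped, and Jagged1-high libraries were higher. In Jag1KO + rescue it had 59.97, 107 and 107 CPM, below the 188, 133 and 149.9 of Jag1KO + ctrl in every library. The log2 fold changes were 0.92 (SE 0.187, edgeR FDR = 0.0898), 0.47 (SE 0.0985, edgeR FDR = 0.792) and −0.78 (SE 0.247, edgeR FDR = 0.112) in the parental, siRNA and rescue comparisons, and none was called. The difference between the parental and the rescue comparison was itself tested in the fit of 18 libraries, where it was 1.73 (SE 0.296, edgeR FDR = 0.00666). Jag1KO + ctrl stood above Jag1KO in every library here too, by 0.47 (SE 0.172, edgeR FDR = 0.757). Jag1KO + rescue, with a mean of 91.5 ± 27.3 CPM, overlapped Jag1KO at 112 ± 14.9 (SD, n = 3). With ITGA1 in Jag1WT against Jag1KO, the call depended on the test, and an FDR below 0.05 was reached with DESeq2 (0.000524), with all 18 libraries in 1 fit (0.0456), without the filter on low values (0.0194) and with the replicate block (0.00526).

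ITGA2, the α chain of the collagen receptor with the most RNA, had its highest means in the groups of parental cells. Its means were 1517 ± 15.9 CPM in Jag1WT, 1449 ± 72.9 in siCtrl and 1361 ± 196 in siJag1, all parental cells. In the cells of clonal origin they were 1192 ± 189 in Jag1KO + ctrl, 1165 ± 60.5 in Jag1KO and 1109 ± 283 in Jag1KO + rescue (SD, n = 3). The ranges of siJag1 (1139 to 1510) and Jag1KO + ctrl (1005 to 1384) overlapped, so that the lineages were not separate in every library, and this ordering was not tested. The log2 fold change was 0.38 (SE 0.108, edgeR FDR = 0.297) in Jag1WT against Jag1KO, −0.11 (SE 0.238, edgeR FDR = 0.763) in the rescue and 0.10 (SE 0.136, edgeR FDR = 0.975) with siRNA. Jag1WT was above siCtrl in every library (1 of the 9 subunits, with 2.89% of all genes lower in every siCtrl library), by 1501 against 1494 CPM at the nearest, and 0 of 9 were higher.

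ITGA10, the α chain of a collagen receptor best known from cartilage, was low, with 30 to 555 reads in a library, and the most variable. It had 2.04, 6.36 and 6.27 CPM in Jag1KO + rescue and 33.3, 21.9 and 20.9 in Jag1KO + ctrl, the lowest and the highest of the 6 group means. The means of Jag1WT (10.1, 9.32 and 21.8), Jag1KO (8.94, 11.2 and 13.6), siCtrl (6.36, 9.71 and 9.36) and siJag1 (10.3, 13.9 and 10.0) lay between. Replicate 3 of Jag1WT, at 21.8, was inside the range of Jag1KO + ctrl. The rescue difference was −2.37 (95% interval −3.34 to −1.41, edgeR FDR = 0.104), and Jag1KO + ctrl was above Jag1KO in every library by 1.16 (SE 0.25, edgeR FDR = 0.757). With siRNA every siCtrl library was lower than every siJag1 library (1 of 9; 5.32% of all genes), with a log2 fold change of −0.43 (SE 0.225, edgeR FDR = 0.970), while 4 of 9 were higher in every library (ITGA1, ITGA3, ITGA5 and ITGB3; 5.15% of all genes). ITGA10, ITGB5 and ITGA1 were called lower in the rescue with DESeq2 and with all 18 libraries in 1 fit, where 994 and 1361 of all genes were called lower. Leaving out replicate 3 of Jag1KO + ctrl, the one with low proliferation genes, gave an edgeR FDR of 0.00758 for ITGA10 and 0.00665 for ITGB5. Over all genes, that fit called 1774 higher and 1875 lower.

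ITGA3, the laminin receptor α chain and the subunit with the most RNA, had 2219, 2373 and 2586 CPM in Jag1WT and 1775, 1509 and 1648 in Jag1KO. In siCtrl it had 2453, 2519 and 2484 CPM, and in siJag1 2102, 1380.0 and 2044. The low groups did not overlap the high ones in these comparisons. In siJag1 the lowest library was replicate 2, which had the proliferation mean of 6.71. Jag1KO + rescue (1576 ± 135) and Jag1KO + ctrl (1573 ± 321, SD, n = 3) overlapped. The log2 fold changes were 0.54 (SE 0.126, edgeR FDR = 0.164), 0.44 (SE 0.174, edgeR FDR = 0.970) and −0.00 (95% interval −0.47 to 0.46, edgeR FDR = 0.989) in the parental, siRNA and rescue comparisons.

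ITGB1, the shared β chain, differed little between the parental and the knockout cells. It had 1364, 1387 and 1330.3 CPM in Jag1WT and 1375, 1401 and 1393 in Jag1KO, with a log2 fold change of −0.04 (95% interval −0.27 to 0.20, edgeR FDR = 0.950). In siCtrl it had 1369.8, 1451 and 1459.8 CPM against 1597, 1449.6 and 1565 in siJag1, and in Jag1KO + rescue 1607, 1603 and 1561 against 1289, 1302 and 1474 in Jag1KO + ctrl. Only the rescue libraries were all above their partners, by 0.22 (SE 0.156, edgeR FDR = 0.336). The summed RPKM of ITGA1, ITGA2, ITGA3, ITGA5 and ITGA10 per 100 ITGB1 was 245 ± 20.4 in Jag1WT and 163 ± 6.04 in Jag1KO, and 234 ± 4.63 in siCtrl and 169 ± 22.1 in siJag1 (SD, n = 3), without overlap in either pair (exact two-sided permutation p = 0.1, the smallest possible). In Jag1KO + rescue it was 142 ± 24.0 and in Jag1KO + ctrl 170 ± 17.2, which overlapped (exact permutation p = 0.3), and the lowest library of all was replicate 1 of Jag1KO + rescue at 114. ITGA3 made up 55.02% to 60.5% of this sum and ITGA2 22.4% to 27.0% as group means, so that most of the summed RNA came from these genes.

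**Figure D4:**
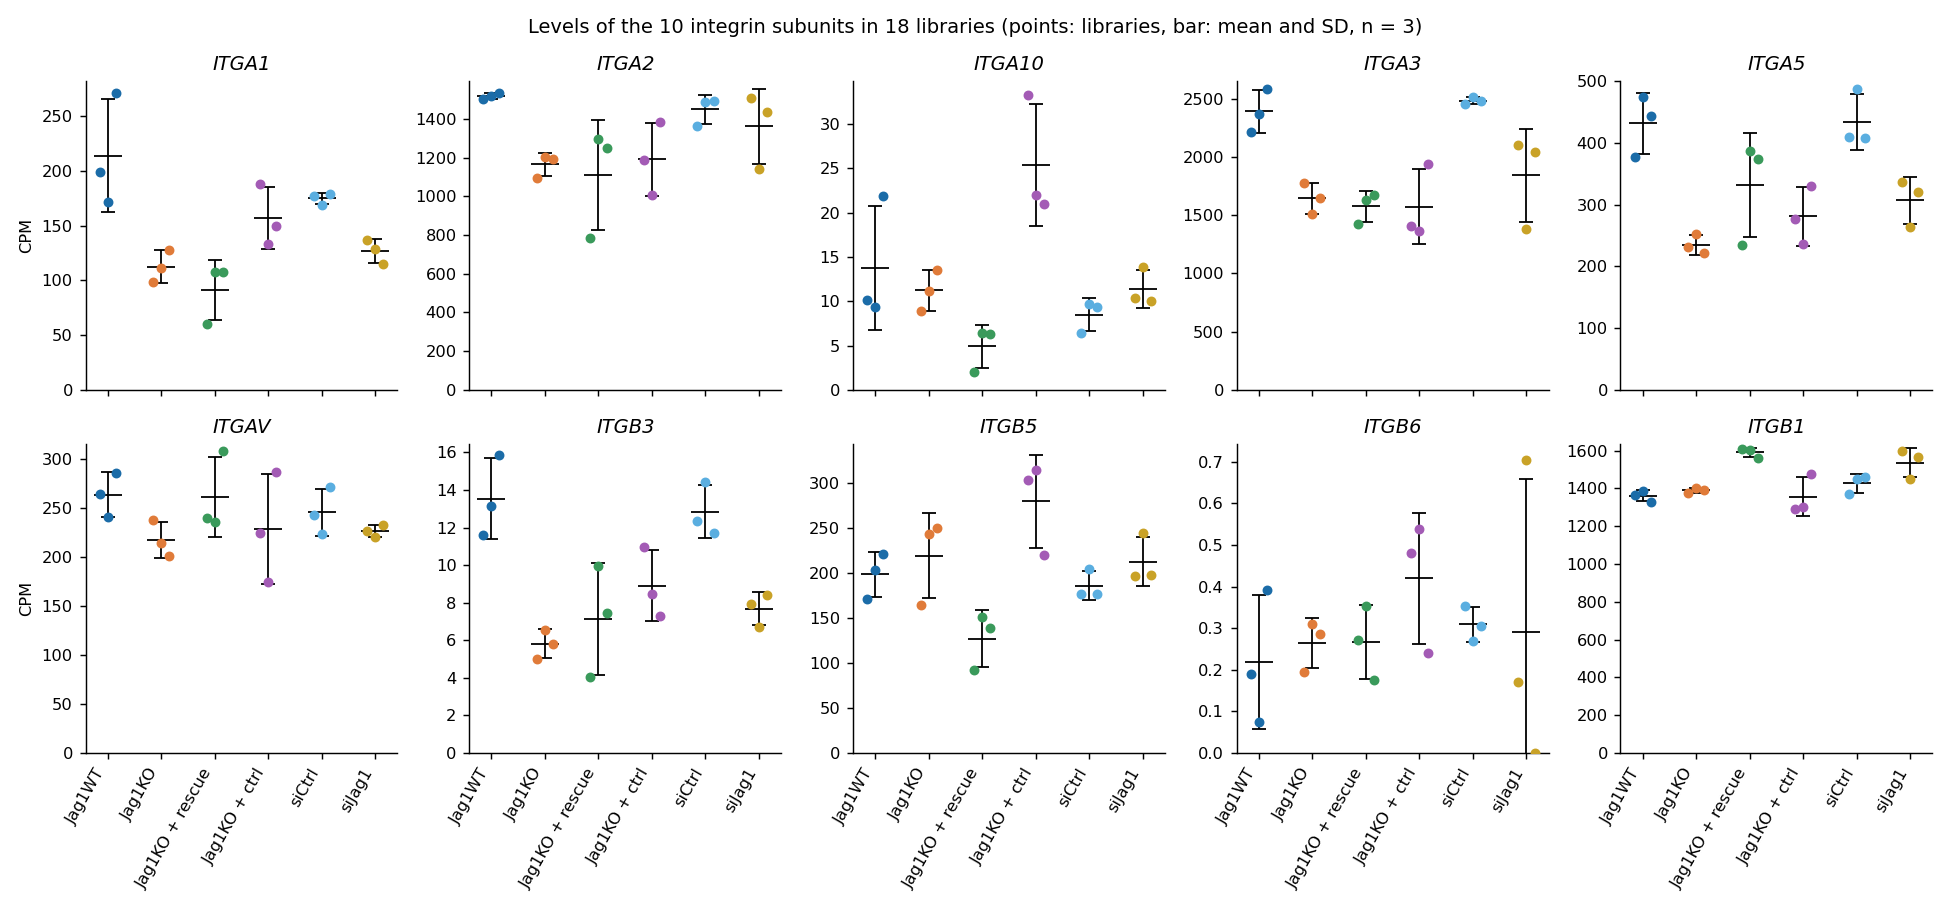
CPM of each subunit in the 18 libraries, with mean and SD (n = 3) of each condition and axes from 0. ITGA5, ITGB3, ITGA1 and ITGA3 are higher in Jag1WT and siCtrl than in Jag1KO and siJag1 without overlap, ITGB1 varies least, and ITGA10 and ITGB5 have their highest means in Jag1KO + ctrl and their lowest in Jag1KO + rescue.

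Whether the comparisons differed was tested gene by gene in the 18 libraries. Between Jag1WT against Jag1KO and Jag1KO + rescue against Jag1KO + ctrl, 4 of the 9 subunits differed at an edgeR FDR below 0.05, where 6.84% of all genes did in either direction. They were ITGA1, ITGA10 (2.69, edgeR FDR = 0.0153), ITGB3 (1.56, edgeR FDR = 0.0252) and ITGB5 (1.02, edgeR FDR = 0.0456), all more positive with the parental cells. ITGA5 was not among them, with a difference of 0.66 (95% interval 0.14 to 1.18, edgeR FDR = 0.106). Between the parental and the siRNA comparison 0 of 9 differed (0.125% of all genes, 0 of 9 also at an unadjusted p below 0.05), and the largest difference was 0.72 for ITGA10 (95% interval −0.42 to 1.86, edgeR FDR = 1.00). Between the rescue and the siRNA comparison 1 of 9 differed, ITGA1 at −1.28 (edgeR FDR = 0.0449), with 2.01% of all genes. Without the filter on low values, ITGB5 in the first contrast (edgeR FDR = 0.0502) and ITGA1 in the last (edgeR FDR = 0.0567) did not pass. Some of these differences rested on single libraries. Leaving out 1 library at a time gave 1 to 4 subunits in the first contrast, and ITGB5 lost its place in 13 of 18 such fits, with an edgeR FDR of up to 0.122, and ITGA1 in the last contrast in 14 of 18, with up to 0.130. ITGB3 lost it in 5 fits (up to 0.0807), and ITGA10 without Jag1WT replicate 3 and without Jag1KO + ctrl replicate 1 (0.0539 in both).

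**Figure D5:**
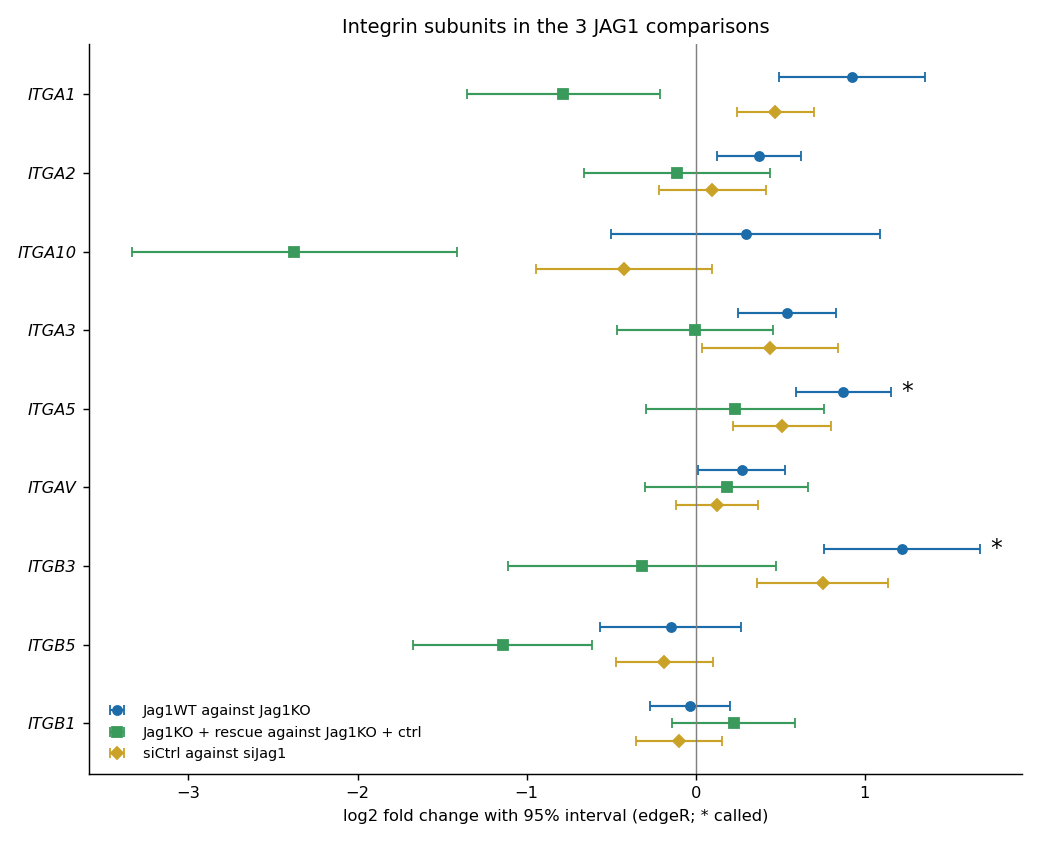
Log2 fold changes of the 9 tested subunits with 95% intervals in the 3 comparisons, Jagged1-high against low; an asterisk marks a call. ITGA5 and ITGB3 are called in Jag1WT against Jag1KO, and ITGA1, ITGA10 and ITGB5 have rescue intervals below 0.

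The control comparisons gave the background without a change of JAG1. In siCtrl against Jag1WT, 0 of 9 subunits were called (0% of all genes in either direction), 0 had p under 0.05 before adjustment (1.38%) and the median log2 fold change was −0.09. In Jag1KO + ctrl against Jag1KO, 0 were called (0% of all genes), but 3 were higher in every library (ITGA1, ITGA10 and ITGB3; 6.05% of all genes) and 0 lower (4.01%), and 3 had p under 0.05 before adjustment (5.81%). In these 3 the difference was 0.47 to 1.16 on the log2 scale, and the plasmid and the G418 selection cannot be told apart in it. DESeq2 called 1 of them, ITGA10, with 12 of all genes called higher and 1 lower.

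Of the other integrin subunits, 6 of the 16 in the tables passed the filter. In the parental, rescue and siRNA comparisons 0 were called by edgeR. At an unadjusted p below 0.05 there were 2, 2 and 3, beside 8.81%, 30.8% and 3.83% of all genes. ITGB8, the β chain of another TGFβ-activating receptor, was called lower in the mean of the 3 comparisons, at −1.14 (SE 0.271, edgeR FDR = 0.0484) with 0.818 to 8.54 CPM. ITGB4, the laminin-binding β chain of hemidesmosomes, had 44.7 ± 16.9 CPM in Jag1WT and 22.99 ± 9.02 in Jag1KO, and 10.0 ± 5.84 in Jag1KO + rescue against 42.4 ± 10.2 in Jag1KO + ctrl (SD, n = 3). Its rescue difference was −2.08 (SE 0.464, edgeR FDR = 0.104). ITGA6, its α chain, had 318 to 595 CPM and was not called.

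The ligands made by the cells themselves were led by collagen VI. Of the 9 collagen genes in the list, 7 were tested in Jag1WT against Jag1KO and 2 called higher, COL6A3 and COL6A2, with 0 lower. COL6A3, an α chain of collagen VI, had 73.3 ± 10.4 CPM in Jag1WT and 4.96 ± 0.228 in Jag1KO (SD, n = 3), a log2 fold change of 3.88 (SE 0.160, edgeR FDR = 9.35e-05), and was also called with siRNA at 2.30 (SE 0.221, edgeR FDR = 0.0484), the only collagen gene called there. In Jag1KO + rescue it had 18.1 ± 6.26 CPM against 3.52 ± 0.897 in Jag1KO + ctrl, a comparison in which 0 of 6 tested collagen genes were called. Collagen genes with an unadjusted p below 0.05 were 5 of 7, 2 of 6 and 6 of 7 in the parental, rescue and siRNA comparisons. The shares of all genes were 8.81%, 30.8% and 3.83%. Of all genes, 2 were called higher with siRNA by edgeR, against 0 with limma at either pseudocount and 0 to 4 when 1 library was left out (0 in 4 of 6 such fits). COL6A2 had 1.86 ± 0.283 CPM in Jag1WT and was at 0 in the 3 Jag1KO libraries. It passed the filter on low values only through the Jag1WT libraries, so that it could come out only as higher, and its call adds no support. Of the ligands with an arginine-glycine-aspartate motif, 10 of 13 were tested and 1 was called higher in Jag1WT against Jag1KO, LTBP1, which holds latent TGFβ in the matrix (0.71, SE 0.119, edgeR FDR = 0.0457). Of the 10, an unadjusted p below 0.05 was found for 4, 3 and 2 in the parental, rescue and siRNA comparisons, beside the same shares of all genes. FN1, the ligand of the ITGA5 receptor, ranged from 642 to 1804 CPM and was not called, and VTN, the gene of vitronectin, had at most 0.152 CPM. Of 7 laminin chains, all tested, 0 were called in any of the 3 comparisons by edgeR. At an unadjusted p below 0.05 there were 2, 2 and 1 in the parental, rescue and siRNA comparisons (8.81%, 30.8% and 3.83% of all genes).

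Inside the cell, integrins bind a complex of talin, kindlin, kinases and actin linkers. Of 36 adhesion complex genes in the list, 34 or 35 were tested and 0 were called by edgeR in each of the 3 comparisons. At an unadjusted p below 0.05 there were 3, 13 and 4 in the same order, beside 8.81%, 30.8% and 3.83% of all genes. PTK2B, the FAK-related kinase, was called higher in the mean of the 3 comparisons (0.79, SE 0.163, edgeR FDR = 0.0243). The medians of the list were −0.01, −0.19 and −0.01 in the parental, rescue and siRNA comparisons. Of 14 membrane partners of integrins, all tested, 0 were called by edgeR in any of the 3 comparisons or in the mean. In the 3 comparisons 2, 5 and 4 had an unadjusted p below 0.05 (8.81%, 30.8% and 3.83% of all genes). CD9, a tetraspanin, passed the FDR threshold in the mean at −0.44 (SE 0.0812, edgeR FDR = 0.0125) without reaching the fold threshold. Of the 20 proliferation genes, 1 was called lower in Jag1WT against Jag1KO (MCM2, −0.78, edgeR FDR = 0.0442), and their median log2 fold change was −1.21 there, −1.30 in the rescue and −0.69 with siRNA. Of these 20 genes, 10, 7 and 0 had an unadjusted p below 0.05 in that order (8.81%, 30.8% and 3.83% of all genes).

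The genes whose log2(CPM + 1) followed the called subunits most closely over the 18 libraries are given as a description, since libraries share conditions, replicate numbers and proliferation state. For ITGA5 they were LAMC1 (Pearson r = 0.902), SERPINB6 (0.902) and IL6 (0.886). For ITGB3 they were MELTF (0.916), SERPINB6 (0.914) and POLD4 (0.880). LAMC1 encodes a laminin γ chain, SERPINB6 an intracellular protease inhibitor, IL6 a cytokine, MELTF a membrane-bound relative of transferrin and POLD4 a subunit of a DNA polymerase. SERPINB6 stood in both lists.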

How the data were processed

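The deposited counts are whole reads per gene, from stranded mRNA libraries whose uniquely mapped reads (hg38) the authors counted. The submitters' processing notes name featureCounts, edgeR 3.28.0, R 3.6.1 and MultiQC 1.5, and the aligner is not given in the sources used here. The deposited CPM signal holds these counts scaled by the authors with TMM library sizes. Each deposited RPKM is the authors' CPM over 1 length of the gene. In the RPKM table, 3 columns spelled siJaq1 matched no sample and were not used. The length was taken from the other columns, and RPKM of all 18 libraries was computed from CPM.

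Counts were tested with edgeR 4.0.16 (quasi-likelihood F test, TMM, two-sided) in R 4.3.3, in the 6 libraries of each comparison and, for the mean of the 3 comparisons and their differences, in all 18. Genes above 1 CPM in at least 3 of 6 (9 of 18) libraries were tested, and 292 genes without a symbol, with at most 0.0442% of a library's counts, were left out. Calls need a fold change above 1.5 beside an FDR (Benjamini-Hochberg) below 0.05, and for differences between comparisons the FDR alone. The SE is the log2 fold change over the root of F. The study itself tested log2(CPM + 1) with ROTS, which was not installed, and limma 3.58.1 on that scale is an alternative, as are DESeq2 1.42.0, DESeq2 size factors, no filter, a pseudocount of 0.25, the replicate block and leaving out each library. On simulated counts for Jag1WT against Jag1KO with gene-wise dispersion (12780 genes), edgeR recovered 75 of 100 genes changed 2-fold and 100 of 100 changed 4-fold, and called 11 unchanged genes. Ratios were compared with exact permutation tests in scipy 1.17.1 (Python 3.11.15).

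No main test and no permutation test used a pairing of libraries, and the replicate number entered only the alternative fits with a block. Libraries with the same replicate number are described as paired where the correlation of their deviations from the group means was above 0.1 in every pair. This held for siCtrl and siJag1 (0.543, 0.522 and 0.264) and for siCtrl and Jag1WT (0.595, 0.713 and 0.210), from the data alone, and not in the other comparisons. All 10 subunits and up to 5 called genes per list were named. The members and lists were chosen with earlier results of these data known. Counting error only is covered by the limit for a count of 0.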

Additional observations from a re-analysis of the deposited data

Results flagged for a closer look

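The knockout and the rescue comparisons differed in 4 subunits, by a test of the difference itself in the 18 libraries. On the log2 scale, Jag1WT against Jag1KO exceeded Jag1KO + rescue against Jag1KO + ctrl by 1.73 for ITGA1 (edgeR FDR = 0.00666), by 2.69 for ITGA10 (edgeR FDR = 0.0153), by 1.56 for ITGB3 (edgeR FDR = 0.0252) and by 1.02 for ITGB5 (edgeR FDR = 0.0456). ITGA1 also differed between the rescue and the siRNA comparison, by −1.28 (edgeR FDR = 0.0449). Without the filter on low values, the ITGB5 difference had an edgeR FDR of 0.0502 and that of ITGA1 between rescue and siRNA one of 0.0567. Of the 18 fits that left out 1 library, ITGB5 failed the FDR threshold in 13, ITGB3 in 5, ITGA10 in 2 and ITGA1 between rescue and siRNA in 14. For ITGA1, ITGA10 and ITGB3 every Jag1KO + ctrl library lay above every Jag1KO library, and for ITGB5 the 2 groups overlapped, at 219 ± 47.1 CPM in Jag1KO and 279 ± 51.6 in Jag1KO + ctrl (SD, n = 3). Groups of 3 libraries were not searched for single libraries that stand apart.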

How the results depend on the processing

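Of 45 fold changes of single subunits in 6-library comparisons, 38 to 43 kept their direction and side of the threshold under each alternative, and of 36 in 18-library contrasts 31 to 36. Direction turned only for values near 0. For ITGA3 in the rescue it went from −0.00 to 0.003085 (DESeq2 size factors), 0.021508 (no filter), 0.003087 (DESeq2), 0.01798 and 0.017995 (limma, pseudocounts 1 and 0.25) and 0.011109 (replicate block), and for ITGA5 in siCtrl against Jag1WT to 0.000301, 0.003623, 0.000336, 0.010582, 0.010603 and 0.001311 in the same order. The subunits called lower in the rescue were 3 with DESeq2 and 3 with all 18 libraries in 1 fit, in place of 0, and 0 to 2 leaving out 1 library. In Jag1KO + ctrl against Jag1KO, DESeq2 called 1 higher in place of 0 (12 of all genes in place of 0). In the mean of the 3 comparisons, 1 was called lower without the filter, 1 with DESeq2 and 1 with the replicate block, in place of 0. Over all genes the mean gave 158, 321 and 491 lower in these settings, in place of 74. Between the rescue and siRNA comparisons, the 1 called lower (ITGA1) became 0 without the filter (edgeR FDR = 0.0567), 3 with DESeq2 and 3 with the replicate block, and DESeq2 added 1 higher there and 1 lower between the parental and rescue comparisons. All genes lower between the rescue and siRNA comparisons were 41, 604 and 703 in the same order, in place of 217. DESeq2 gave 419 higher there, in place of 40, and 715 lower between the parental and rescue comparisons, in place of 334. The cause was not tested. Without TMM factors, the level of ITGA2 in Jag1WT was 1538 CPM, and those of ITGB1 1414 in Jag1KO and 1497.1 in Jag1KO + rescue.

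Leaving out 1 library at a time, the subunits called higher in Jag1WT against Jag1KO were 0 to 4, in the mean 0 to 2 higher (2 without Jag1KO + rescue replicate 1) and 0 to 1 lower, between the parental and rescue comparisons 1 to 4, and between the rescue and siRNA comparisons 0 to 1 higher and 0 to 4 lower. Over all genes, these fits gave 30 to 241 higher and 20 to 613 lower in the mean. They gave 76 to 1375 higher and 42 to 1495 lower between the parental and rescue comparisons. Between the rescue and siRNA comparisons it was 0 to 1327 higher and 2 to 1084 lower. Fold changes that changed sign in such fits spanned −0.22 to 0.51 (ITGA10) in the parental comparison, −0.25 to 0.0945 (ITGA2) and −0.10 to 0.18 (ITGA3) in the rescue and −0.00693 to 0.17 (ITGA2) with siRNA. In Jag1KO + ctrl against Jag1KO they spanned −0.10 to 0.13 (ITGA2), −0.26 to 0.0158 (ITGA3) and −0.14 to 0.22 (ITGAV), and in siCtrl against Jag1WT −0.00945 to 0.11 (ITGA3), −0.0916 to 0.0739 (ITGA5) and −0.19 to 0.0523 (ITGB3). Differences between comparisons spanned −0.0833 to 0.26 (ITGAV, parental and rescue), −0.13 to 0.15 (ITGB5, parental and siRNA) and −0.11 to 0.23 (ITGAV, rescue and siRNA).

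Counts over all genes depended far more on the setting. In Jag1WT against Jag1KO, 53 higher and 39 lower became 86 and 71 without the filter, 116 and 119 with DESeq2 and 145 and 137 with the replicate block, and in the rescue 1 and 0 became 589 and 994 with DESeq2 and 772 and 1361 with all 18 libraries. With siRNA, 2 higher became 21 with DESeq2, 8 without the filter, 7 with all 18 libraries, 4 with the replicate block and 0 with limma at both pseudocounts. Leaving out 1 library gave 1 to 333 higher and 7 to 600 lower in Jag1WT against Jag1KO (333 and 600 without Jag1KO replicate 1), 0 to 1774 and 0 to 1875 in the rescue (1774 and 1875 without Jag1KO + ctrl replicate 3) and 0 to 4 higher with siRNA (4 without siJag1 replicate 2). The replicate number as a block made ITGA1 pass in Jag1WT against Jag1KO (0.91, edgeR FDR = 0.00526), where the libraries share only a number (correlations 0.632, 0.667 and −0.0137), and it changed no call of a subunit in the 2 paired comparisons. ITGB6, at 0 to 13 reads, was below what this depth can compare.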
